A study of Mus musculus with 40 samples.

Results

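The genes of MHC class II antigen presentation were followed in 39 mouse mammary tumors. They comprised 9 of the 14318 genes for which values were deposited and were picked by symbol: H2-Aa, H2-Ab1, H2-Eb1, Cd74, Ciita, H2-DMa, H2-DMb1, Cd80 and Cd86. Each of the 9 had a value in every tumor, and the lowest raw count of any of them in any tumor was 14 reads, for Cd80. The tumors came from wild-type female BALB/c mice that were lactating when luciferase-expressing 4T1 or 66cl4 cells, both mouse lines of triple-negative breast cancer (TNBC), were injected into the ducts of the third mammary gland pair, and all were primary tumors taken at 5 w post-inoculation (p.i.). In each model the mice were left untreated, received anti-PD-1 (200 µg per mouse, an antibody that blocks the T-cell inhibitory receptor PD-1), chitin (1 mg per mouse, given as microparticles), or chitin + anti-PD-1, all by i.p. injection from 3 w p.i. Each group held 5 tumors apart from untreated 4T1 with 4 (tumors 1, 2, 4 and 5; tumor 3 was not analysed here), giving 19 tumors in the 4T1-based and 20 in the 66cl4-based model. Each model rests on 1 implanted line. The mouse of each tumor is not given in the sources used here, and glands of a pair were injected, so that tumors of a group may share a mouse and p-values measure only the spread between these tumors. RNA was taken from whole tumors, so that tumor cells, immune cells and remaining gland were measured together.

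MHC class II molecules are surface heterodimers that show peptides from engulfed protein to CD4+ T cells. They are made constitutively by dendritic cells, B cells and many macrophages, and other cells, tumor cells included, can make them when exposed to interferon-γ. H2-Aa and H2-Ab1 encode the α and β chain of the I-A molecule, and H2-Eb1 the β chain of I-E. Cd74 encodes the invariant chain, which guides new class II dimers to the endosome and fills their groove until a peptide is loaded. H2-DMa and H2-DMb1 encode chains of the H2-DM dimer, which exchanges the invariant chain fragment for peptide. Ciita encodes the class II transactivator, which is recruited to the promoters of these genes by the RFX, CREB and NF-Y factors bound there and is itself induced by interferon-γ through JAK2 and IRF1. Cd80 and Cd86 encode the costimulatory ligands of CD28 and CTLA-4 and belong to another gene family.

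In mm10 (gene models of GENCODE M21), 5 of the genes lie in the class II region of chromosome 17: H2-DMa (34119541 to 34139101), H2-DMb1 (34153072 to 34160230), H2-Ab1 (34257689 to 34269419) and H2-Eb1 (34305867 to 34316674) on the plus strand and H2-Aa (34282744 to 34287823) on the minus strand. Ciita (10480059 to 10528418, plus strand), Cd86 (36603869 to 36666081, minus strand) and Cd80 (38455561 to 38496335, plus strand) are on chromosome 16. The reference is of the C57BL/6 strain, and BALB/c carries another class II haplotype, so that reads over the polymorphic exons of H2-Aa, H2-Ab1 and H2-Eb1 may map less often; this was not tested. It is the same for both models, which share the strain. Reads of H2-DMb1 can be split with its near-identical neighbor H2-DMb2, which is why H2-DMb1 values are uncertain in size. H2-Eb1, Ciita and H2-DMa overlap genes on the opposite strand, which strand-specific counting keeps apart, while H2-DMa and Cd74 also overlap an annotated RNA on the same strand, with which reads may be lost.

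Promoter stretches of 150 bases before the start site are shown for H2-Aa, H2-Eb1 and H2-DMb1, which have matches to class II promoter elements, and for Cd80, which has none. They are from the RefSeq annotation of GRCm38.p6, in which 5 of the 9 genes were matched to a promoter, and are written 5′ to 3′ on the gene's strand, at chr17:34287824-34287973 (minus), chr17:34305717-34305866 (plus), chr17:34153041-34153190 (plus) and chr16:38458783-38458932 (plus). The RefSeq start sites of H2-DMb1 and Cd80 lie inside the gene spans given above. Capitals mark the Y box (ATTGG, the NF-Y site), the core of the X1 box (AACNGATG, within the RFX site) and the X2 box (TGACGTCA, a CREB-type site), each searched on both strands.
H2-Aa: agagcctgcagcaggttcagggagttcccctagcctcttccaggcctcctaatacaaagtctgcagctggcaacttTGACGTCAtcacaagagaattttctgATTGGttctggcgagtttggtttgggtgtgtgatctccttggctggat
H2-Eb1: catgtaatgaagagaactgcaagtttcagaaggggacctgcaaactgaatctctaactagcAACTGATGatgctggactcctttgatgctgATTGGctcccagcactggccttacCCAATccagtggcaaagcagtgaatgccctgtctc
H2-DMb1: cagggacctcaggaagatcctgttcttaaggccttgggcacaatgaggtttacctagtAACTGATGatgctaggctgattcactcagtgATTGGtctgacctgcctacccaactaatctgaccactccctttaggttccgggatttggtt
Cd80: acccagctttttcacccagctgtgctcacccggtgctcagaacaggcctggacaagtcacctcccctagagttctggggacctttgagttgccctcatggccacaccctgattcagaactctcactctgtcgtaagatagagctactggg
In H2-Eb1 the X1 core lies 89 to 82 bases and a Y box 59 to 55 bases before the start, with a further Y box on the reverse strand at 35 to 31. H2-DMb1 has the same order, with the X1 core at 92 to 85 and the Y box at 61 to 57, and H2-Aa has an X2 box at 74 to 67 and a Y box at 48 to 44. None of these matches overlap each other. In 250 bases before the start, the Y box occurs in 33.8% of 32851 promoters of all genes, the X1 core in 1.98%, the X2 box in 1.55%, and Y box and X1 core together in 0.688%. Of the 2 promoters of H2-DMa, one has a Y box at 198 to 194 bases and the other no match. Neither has a match within 150 bases, although H2-DMa moved with the class II genes in these tumors (r = 0.92 with their mean, given further on). The stretches shown therefore do not separate genes that moved together from those that did not. A match is a description of letters only.

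The tumors had 5105898 to 14800352 reads on genes (median 6590274), the deepest groups by median being 66cl4 chitin (10250227), 66cl4 chitin + anti-PD-1 (8985408) and 4T1 chitin (8759930). Levels below are normalized counts, which are reads divided by a size factor for each tumor and not by gene length. Differences are between group means of the deposited log2-like values, which are compressed at low counts, so that ratios of mean normalized counts are given beside them; errors are SD for levels and SE for differences. The epithelial markers Epcam, Krt8, Krt18, Krt14 and Cdh1 together had 13716 to 50122 normalized counts in 4T1 tumors and 3366 to 5999 in 66cl4 tumors, and all 5 passed the test as lower in 66cl4 in each treatment. Tumors labelled 66cl4 thus held less epithelial marker RNA than those labelled 4T1.

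Per kilobase of exon, Cd74 was the most abundant of the 9 genes in both models, with a median of 13839 normalized counts per kb over 19 4T1 tumors (7918 to 29321) and 2857 over 20 66cl4 tumors (908 to 10358). In 4T1 tumors the medians then fell through H2-Eb1 (3587), H2-Ab1 (2036), H2-Aa (1037), H2-DMa (455), H2-DMb1 (357), Ciita (102) and Cd86 (42.6) to Cd80 (9.56). In 66cl4 tumors the first 5 kept that order (H2-Eb1 633, H2-Ab1 332, H2-Aa 196 and H2-DMa 133), followed by Cd86 (52.1), H2-DMb1 (27.1), Cd80 (15.9) and Ciita (14.2). In 66cl4 Ciita ranged from 2.95 to 55.2, Cd80 from 10.8 to 23.3 and H2-DMb1 from 10.5 to 112 per kb. The ranges of these 3 neighbors in the order overlap across tumors, and their order within each tumor was not compared. The ranges of H2-DMa (241 to 663) and H2-DMb1 (183 to 553) also overlap across 4T1 tumors. Their order per kb within each tumor was likewise not compared. Within every tumor, Cd74 stayed above H2-Eb1.

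The class II genes were several-fold lower in 66cl4 than in 4T1 tumors. H2-Ab1, the I-A β chain, had 6227, 3077, 3354 and 9057 normalized counts in the 4 untreated 4T1 tumors and 314, 841, 305, 1042 and 717 in the 5 untreated 66cl4 tumors. The highest 66cl4 tumor was below the lowest 4T1 tumor. The difference of 66cl4 minus 4T1 was -2.83 ± 0.46 on the deposited log2 scale (limma, adjusted p = 3.38e-06), with an 8.43-fold higher mean count in 4T1. Its partner chain H2-Aa had 3939, 1955, 2581 and 6366 normalized counts in untreated 4T1 and 250.3, 757, 263, 998 and 582 in untreated 66cl4 tumors, with no overlap, and differed by -2.47 ± 0.47 (adjusted p = 3.61e-05, 6.51-fold). The I-E chain H2-Eb1 had 8617, 4025, 4464 and 12504 in untreated 4T1 and 473, 1272, 382, 1343 and 956 in untreated 66cl4 tumors. These groups are likewise apart, with a difference of -2.87 ± 0.50 (adjusted p = 1.19e-05, 8.36-fold). The invariant chain Cd74 had 23684, 14731, 20217 and 39671 normalized counts in untreated 4T1 and 2045, 4995, 1525, 6297 and 4000 in untreated 66cl4 tumors. Even the highest 66cl4 tumor did not reach the lowest 4T1 tumor, and the difference was -2.74 ± 0.48 (adjusted p = 9.82e-06, 6.51-fold). In whole tumors, fewer cells of a type and less RNA per cell cannot be told apart.

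The transactivator and the peptide exchange genes were lower in the same tumors. Ciita had 1090, 432, 565 and 1866 normalized counts in untreated 4T1 tumors and 37.5, 120.4, 28.1, 155 and 72.1 in untreated 66cl4 tumors, in which it rested on 30 reads at the lowest. Those groups do not overlap, and Ciita differed by -2.43 ± 0.37 (adjusted p = 9.8e-07), with a 12.0-fold higher mean count in 4T1. The DM β chain H2-DMb1 had 816, 361, 319.7 and 907 in untreated 4T1 and 18.8, 35.5, 17.6, 60.5 and 36.0 in untreated 66cl4 tumors. This was the largest gap among the 9 genes as a ratio of untreated means (17.8-fold), and the difference was -2.37 ± 0.27 (adjusted p = 6.05e-09). In untreated 66cl4 tumors H2-DMb1 rested on only 15 to 47 reads. On the deposited log2 scale its difference was smaller in size than those of H2-Eb1, H2-Ab1, Cd74, H2-Aa and Ciita. The DM α chain H2-DMa had 1858, 1071, 1041 and 2266 in untreated 4T1 and 265, 347, 260.3, 519 and 376 in untreated 66cl4 tumors. It had the smallest ratio of the 7 class II genes in untreated tumors (4.41-fold), with a difference of -1.78 ± 0.24 (adjusted p = 1.22e-07).

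The costimulatory ligands did not share this pattern. Cd80 had 31.9, 37.5, 51.0 and 18.3 normalized counts in untreated 4T1 and 41.3, 71.1, 86.2, 52.8 and 40.0 in untreated 66cl4 tumors. The groups overlap, and the mean was 1.68-fold higher in 66cl4 (0.29 ± 0.10, adjusted p = 0.0157); the call is lost without untreated 4T1 tumor 5 (adjusted p = 0.105) or untreated 66cl4 tumor 3 (adjusted p = 0.0674). Cd86 had 156, 106, 156 and 241 in untreated 4T1 and 144, 182, 158, 209.9 and 121 in untreated 66cl4 tumors. Its ranges nearly coincide, and the difference was 0.01 (adjusted p = 0.974), with a 95% confidence interval from -0.28 to 0.29.

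**Figure D1:**
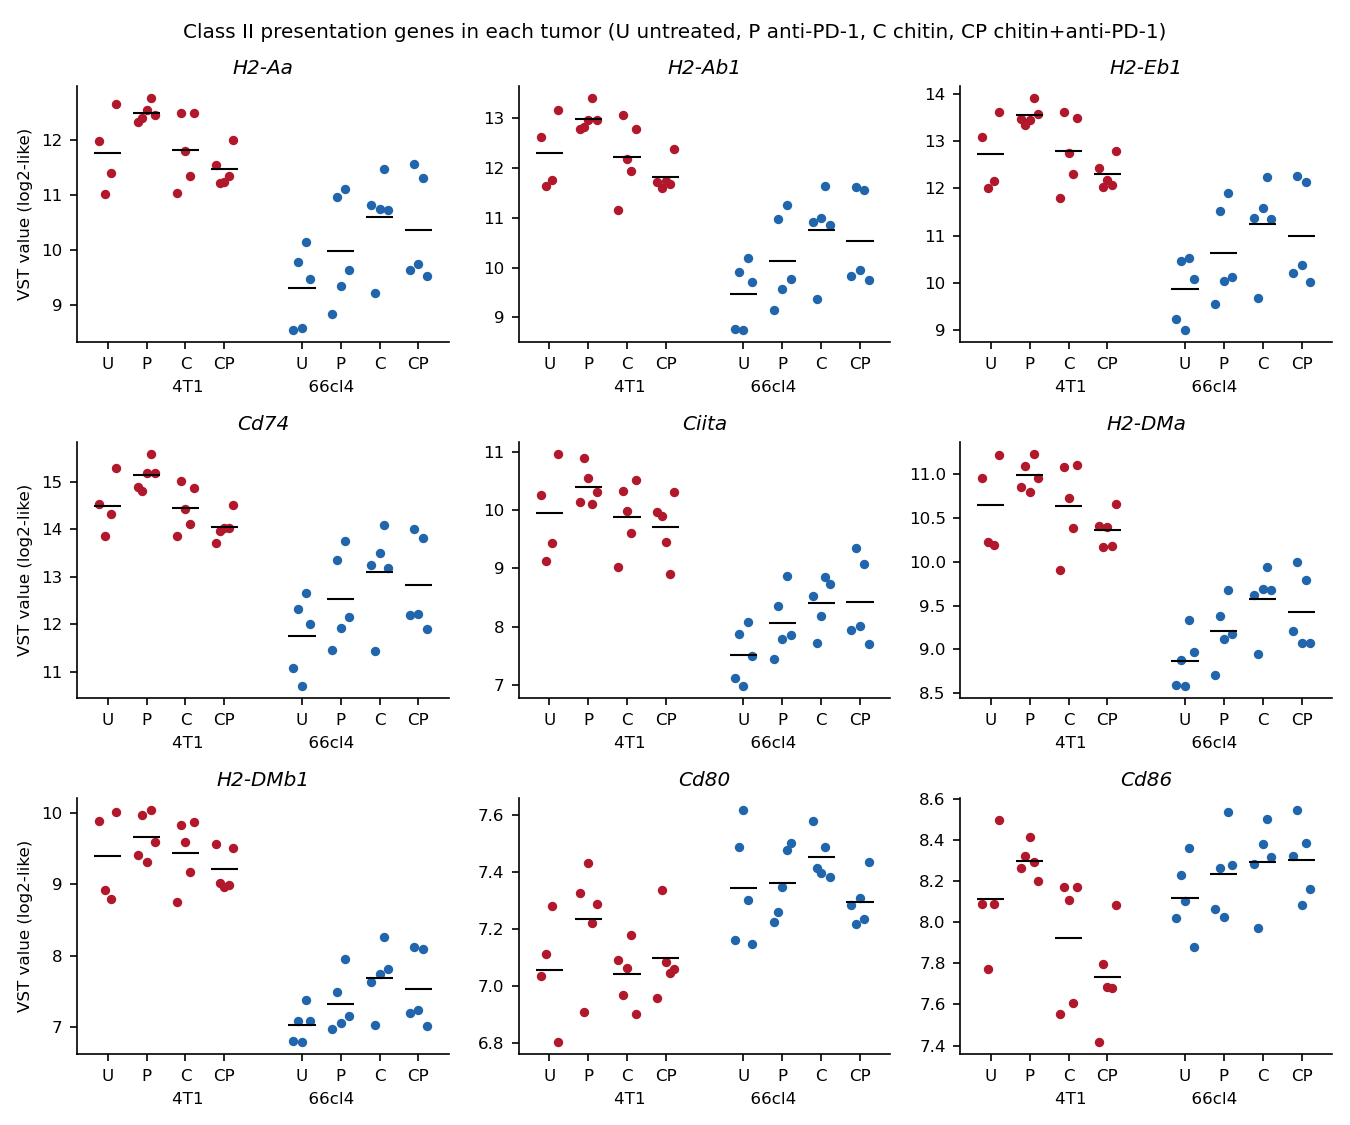
Deposited log2-like value of each of the 9 genes in every tumor, with 1 panel per gene, groups of 4T1 and 66cl4 tumors along the x axis, points for tumors and horizontal lines for the group mean (U, untreated; P, anti-PD-1; C, chitin; CP, chitin + anti-PD-1). The group means of the 7 class II genes sit lower in 66cl4 than in 4T1 in each treatment, whereas Cd80 and Cd86 overlap between untreated groups.

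Of the 9 genes, 7 passed the test as lower in untreated 66cl4 and 1, Cd80, as higher, where 28.7% of the 14318 genes passed as lower and 27.1% as higher. The median difference over the 9 genes was -2.43, against -0.016 over all genes. Groups that do not overlap, with 66cl4 lower, were seen for 7 of the 9 genes and for 22.3% of all genes. The class II genes thus stand in a wide background of differences between the models.

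Under anti-PD-1 the differences were of similar size. H2-Ab1 had 6947, 7126, 7889, 10809 and 7913 normalized counts in 4T1 and 447, 1881, 634, 2313 and 742 in 66cl4 tumors (-2.85 ± 0.43, adjusted p = 1.1e-06, 6.76-fold). The class II genes H2-Aa, H2-Eb1, Cd74, Ciita, H2-DMa and H2-DMb1 also passed as lower, with differences of -2.52, -2.94, -2.60, -2.33, -1.78 and -2.34 and adjusted p of 1.07e-05 or less. Thus 7 of 9 genes were called lower, where 31.1% of all genes were lower and 27.7% higher, and the same 7 had no overlap between the models (20.8% of all genes). Cd80 (0.13, adjusted p = 0.253) and Cd86 (-0.06, adjusted p = 0.703) were not called. With quantile normalization Cd80 was called higher in 66cl4 (0.29, adjusted p = 0.00727).

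Between chitin-treated tumors the differences were smaller in size, which was not tested for chitin alone. A test given further on pools the chitin-containing groups and called none of the 9 genes. Under chitin, the 7 class II genes were again called lower in 66cl4 than in 4T1 (29.9% of all genes lower, 29.2% higher). H2-Ab1 had 2153, 8504, 4492, 3799 and 6895 normalized counts in 4T1 and 1808, 533, 1909, 3074 and 1728 in 66cl4 tumors (-1.47 ± 0.43, adjusted p = 0.00415, 2.85-fold). Here the groups overlap, since 4T1 tumor 1 fell below 66cl4 tumor 4, and Cd74 (-1.35 ± 0.45, adjusted p = 0.01, 2.31-fold), H2-Aa (-1.23 ± 0.44, adjusted p = 0.0167, 2.38-fold) and H2-Eb1 (-1.56 ± 0.48, adjusted p = 0.00545, 2.94-fold) overlap as well. Ciita had 397, 1146, 879, 649 and 1322 in 4T1 and 249, 99.9, 172, 341 and 302 in 66cl4 tumors (-1.48 ± 0.35, adjusted p = 0.000447, 3.77-fold). Only Ciita and H2-DMb1 of the 9 genes were lower without overlap, as were 21.7% of all genes, and H2-DMb1 had 308, 782, 648, 450.0 and 809 in 4T1 and 87.4, 31.4, 101, 188 and 112 in 66cl4 tumors (-1.75 ± 0.26, adjusted p = 6.14e-07, 5.76-fold). H2-DMa differed by -1.07 (adjusted p = 0.000139). Both costimulatory ligands were called higher in 66cl4. Cd80 had 36.0, 27.8, 33.9, 42.6 and 23.7 in 4T1 and 81.5, 63.6, 62.0, 71.4 and 60.5 in 66cl4 tumors, with no overlap (19.9% of all genes were higher without overlap), and differed by 0.41 ± 0.09 (adjusted p = 0.000361). Cd86 had 78.7, 171, 159, 85.2 and 171 in 4T1 and 193, 136, 214, 242 and 201 in 66cl4 tumors, which overlap, and differed by 0.37 ± 0.14 (adjusted p = 0.0196). With array weights, the calls of H2-Aa (adjusted p = 0.0987) and Cd74 (adjusted p = 0.0659) are lost. The call of Cd86 is lost without 4T1 chitin tumor 1 (adjusted p = 0.0845) or 4 (0.0763) or 66cl4 chitin tumor 4 (0.0603), that of H2-Aa without 4T1 chitin tumor 2 (0.0505) or 5 (0.0508) or 66cl4 chitin tumor 2 (0.0851), and that of Cd74 without 66cl4 chitin tumor 2 (0.0633).

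In tumors treated with chitin + anti-PD-1, 7 genes were called lower in 66cl4 and Cd86 higher (29.1% of all genes lower, 27.8% higher). H2-Ab1 had 3259, 2991, 3312, 3168 and 5228 normalized counts in 4T1 and 789.8, 3033, 865, 2874 and 736 in 66cl4 tumors (-1.29 ± 0.43, adjusted p = 0.0117, 2.16-fold). In 66cl4, tumor 2 lay within the range of the 4T1 tumors and tumor 4 just under it, and tumors 1, 3 and 5 were far lower. The same 66cl4 tumors 2 and 4 were highest in Ciita, with 130.2, 526, 141, 415 and 96.5 against 865, 820.2, 574, 355 and 1136 in 4T1 (-1.29 ± 0.35, adjusted p = 0.00191, 2.86-fold). Without overlap were H2-DMa (-0.94 ± 0.23, adjusted p = 0.000674, 2.03-fold) and H2-DMb1 (-1.68 ± 0.26, adjusted p = 1.44e-06, 5.41-fold), where 22% of all genes were lower without overlap. H2-Aa (-1.11, adjusted p = 0.0313), H2-Eb1 (-1.31, adjusted p = 0.0188) and Cd74 (-1.22, adjusted p = 0.0204) were nearest to the threshold. Cd86 had 63.8, 109.6, 94.8, 93.8 and 155 in 4T1 and 202, 253, 155, 215 and 169 in 66cl4 tumors, of which 4T1 tumor 5 just passed the lowest 66cl4 tumor, and differed by 0.57 ± 0.14 (adjusted p = 0.000577, 1.92-fold higher in 66cl4). For Cd80 the difference was 0.20 (adjusted p = 0.0712). Cd80 was called higher in 66cl4 with median centring (adjusted p = 0.0398), quantile normalization (0.00382), array weights (0.034), limma-voom (0.0261) and equal depth (0.0467). It was also called without 4T1 anti-PD-1 tumor 2 (0.049) or 4T1 chitin + anti-PD-1 tumor 2 (0.0235), and not under the other alternatives. Whether Cd80 differs here thus depends on the processing. Leaving out 66cl4 tumor 1, 3 or 5 of this group brings the 8 calls down to 5, with H2-Aa, H2-Eb1 and Cd74 lost, and H2-Aa is also lost without 4T1 tumor 1 (adjusted p = 0.0503) or 5 (0.0748).

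**Figure D2:**
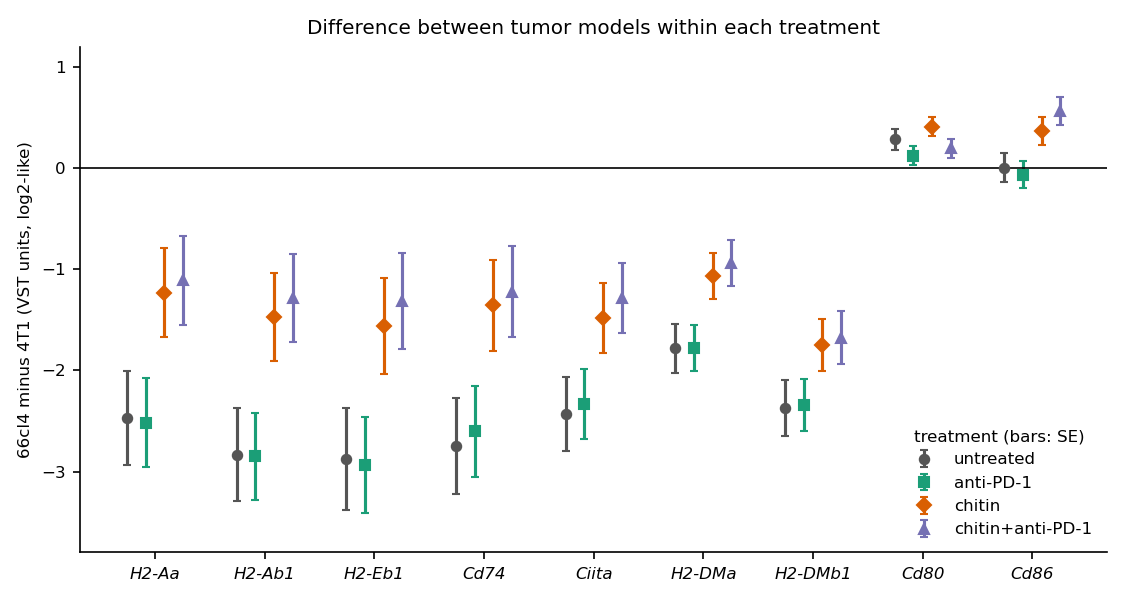
Difference of 66cl4 minus 4T1 in the deposited log2-like value for each of the 9 genes (points, with SE as bars) in each of the 4 treatments. The 7 class II genes are at -2.94 to -0.94, nearest to 0 in the chitin-containing treatments, and Cd80 and Cd86 are at -0.06 to 0.57.

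Within the 4T1-based model, the class II genes had higher means under anti-PD-1 and lower means in tumors given chitin than in those not given it, but no gene passed the threshold. Under anti-PD-1, H2-Eb1 had 11352, 10377, 11108, 15497 and 12142 normalized counts, against the untreated values above. These 5 tumors lie close together and near the upper end of the untreated tumors, with a difference of 0.84 ± 0.35 (limma, adjusted p = 0.531, 1.63-fold). Corresponding values were 0.73 for H2-Aa (adjusted p = 0.533), 0.69 for H2-Ab1 (adjusted p = 0.56), 0.64 for Cd74 (adjusted p = 0.535) and 0.45 for Ciita (adjusted p = 0.714). Under chitin alone, differences were small, such as 0.07 for H2-Eb1 and -0.19 for Cd86 (adjusted p = 1 for both), while H2-Ab1 spanned 2153 to 8504 normalized counts over the 5 tumors. Under chitin + anti-PD-1, Cd86 had 63.8, 109.6, 94.8, 93.8 and 155 against 156, 106, 156 and 241 in untreated tumors. Tumors 2 and 5 of the treated group were within the untreated range and the other 3 below it, and the difference was -0.38 ± 0.16 (unadjusted p = 0.0278, adjusted p = 1). Between 4T1 tumors given chitin (with or without anti-PD-1) and those not given it, differences ran from -0.62 for H2-Ab1 (adjusted p = 0.606) over -0.57 for Cd74 (adjusted p = 0.58) and -0.38 for Cd86 (adjusted p = 0.58) to -0.08 for Cd80 (adjusted p = 0.88).

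Neither limma nor limma-voom on the recovered reads called any of the 9 genes in these 4 comparisons of 4T1 tumors, and limma called 0% of all genes in each. At an unadjusted p under 0.05, limma counted 3 of 9 genes under anti-PD-1 (8.89% of all genes), 0 under chitin (2.77%), 1 under chitin + anti-PD-1 (2.56%) and 5 for the chitin-containing groups (7.28%), and limma-voom counted 3, 0, 1 and 5. The 3 treated groups were set against the same 4 untreated tumors. The class II genes moved together within groups, as given further on, so that counts of them are not counts of independent results. The summed T-cell markers (Cd3d, Cd3e, Cd3g, Cd4 and Cd8a) were 613 to 1568 normalized counts under anti-PD-1, against 236 to 861 in untreated, 189.6 to 844 in chitin and 148 to 743 in chitin + anti-PD-1 tumors, with 4 of 5 at an unadjusted p under 0.05 for anti-PD-1. Other lists moved with them under anti-PD-1 compared with untreated. Dendritic cell markers had a median sum of 1414 against 813 (6 of 8 at an unadjusted p under 0.05), B-cell markers 251 against 23.1 (3 of 3), gland markers 1023 against 19.2 (2 of 2) and fat markers 2308 against 318 (3 of 4). Between tumors given chitin and those not given it, macrophage markers had a median difference of -0.61 (7 of 9 at an unadjusted p under 0.05), dendritic cell markers -0.40 (6 of 8) and T-cell markers -0.53 (5 of 5). No marker passed the adjusted threshold in these comparisons, and their part in the class II values was not tested.

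Within the 66cl4-based model, the class II genes had higher means in the chitin group than in untreated tumors, again without passing the threshold. Under chitin, H2-Ab1 had 1808, 533, 1909, 3074 and 1728 normalized counts, against 314, 841, 305, 1042 and 717 in untreated tumors. Of the 5 chitin-treated tumors 4 exceeded the highest untreated tumor, whereas tumor 2 lay among them, and the difference was 1.29 ± 0.48 (limma, adjusted p = 0.302), a 2.81-fold mean count. H2-DMa, with 662, 368, 701, 852 and 691 under chitin, had the lowest adjusted p of the 9 genes (0.71 ± 0.21, adjusted p = 0.232, 1.85-fold). Its tumor 2 was again the lowest of the group and overlapped with untreated tumors. The remaining class II genes differed by 1.30 for H2-Aa, 1.39 for H2-Eb1, 0.90 for Ciita and 0.66 for H2-DMb1, with adjusted p of 0.284 to 0.327. Cd74 differed by 1.34 (adjusted p = 0.34). Cd80 (0.11, adjusted p = 0.642) and Cd86 (0.17, adjusted p = 0.587) differed least.

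Under chitin + anti-PD-1, the 66cl4 tumors split, with H2-Ab1 at 789.8, 3033, 865, 2874 and 736 and Cd74 at 4535, 16385, 4597, 14357 and 3708 normalized counts. Tumors 2 and 4 were more than double the other tumors in both genes, and the differences from untreated were 1.08 for H2-Ab1 (adjusted p = 0.446), 1.07 for Cd74 (adjusted p = 0.493) and 0.91 for Ciita (adjusted p = 0.348). Among untreated tumors, tumors 2 and 4 were the highest in H2-Ab1 as well, while under chitin tumor 4 was highest and tumor 2 lowest. Under anti-PD-1, tumors 2 and 4 also stood above the rest, with H2-Ab1 at 447, 1881, 634, 2313 and 742. Differences from untreated were 0.68 for H2-Ab1 and 0.02 for Cd80, with adjusted p of at least 0.911 for each of the 9 genes. Between 66cl4 tumors given chitin and those not given it, H2-DMa had 0.46 (adjusted p = 0.165), Ciita 0.62 (adjusted p = 0.203) and H2-Eb1 0.88 (adjusted p = 0.278).

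Here too limma and limma-voom called none of the 9 genes, and limma called 0% of all genes in each of these 4 comparisons of 66cl4 tumors. At an unadjusted p under 0.05, limma counted 0 of 9 genes under anti-PD-1 (5.36% of all genes), 7 under chitin (11.4%), 6 under chitin + anti-PD-1 (10.6%) and 7 for the chitin-containing groups (15.6%), and limma-voom counted 0, 7, 5 and 7. The untreated tumors are shared by the 3 treated groups here as well, and the counted genes are again not independent of each other. Summed T-cell markers were 35.2 to 109 normalized counts in untreated, 114 to 184 in chitin, 88.6 to 213 in anti-PD-1 and 89.2 to 237 in chitin + anti-PD-1 tumors, and summed macrophage markers 26278 to 38888 in untreated and 38830 to 45403 in chitin tumors. Dendritic cell markers summed to 160.2 to 272 in untreated and 260.2 to 399.8 in chitin tumors. Their part was not tested. The chitin group was also the deepest in reads; thinned to 5105898 reads per tumor, limma called 0 of the 9 genes under chitin, with 7 at an unadjusted p under 0.05.

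**Figure D3:**
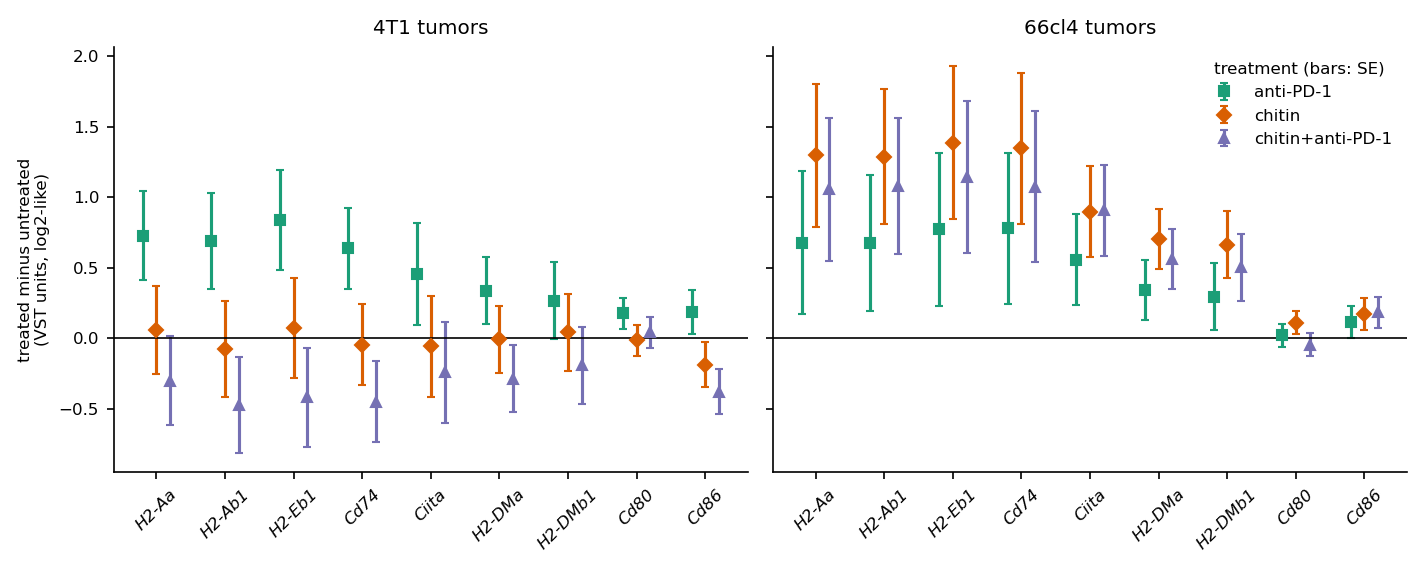
Difference from untreated tumors in the deposited log2-like value for each of the 9 genes (points, with SE as bars) under each treatment, 4T1 and 66cl4 in separate panels. In 66cl4 the 7 class II genes lie above 0 in each treatment, and in 4T1 they lie above 0 under anti-PD-1 and below 0 under chitin + anti-PD-1; none passed the threshold.

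The models were then compared over all 8 groups for their response to any chitin, that is tumors given chitin minus tumors not given it. For H2-Ab1 this was -0.62 in 4T1 and 0.84 in 66cl4, whereas chitin alone against untreated gave -0.08 in 4T1 and 1.29 in 66cl4. In the pooled response, 66cl4 minus 4T1 gave 1.47 ± 0.44 for H2-Ab1 (limma, adjusted p = 0.11). Cd86 had the lowest adjusted p (0.50 ± 0.14, adjusted p = 0.087), followed by H2-DMa (0.78 ± 0.23, adjusted p = 0.104). For H2-Eb1, Cd74, H2-Aa, Ciita and H2-DMb1 it was 1.47, 1.39, 1.32, 1.00 and 0.64 (adjusted p of 0.156 to 0.274), and for Cd80 0.10 (adjusted p = 0.715). None of the 9 genes was called by limma, which called 14 genes in all (0.0978%), or by limma-voom, which called 17. At an unadjusted p under 0.05 there were 8 of the 9 genes with either method, and 13.2% of all genes with limma. These 8 genes largely moved together and are not independent results. The median over the 9 genes was 1.00, against -0.0065 over all genes. Without 4T1 anti-PD-1 tumor 2, limma called 2 of the 9 genes and 677 of all genes. It called 1 of the 9 without untreated 4T1 tumor 2, 4T1 chitin tumor 2 or 4T1 chitin + anti-PD-1 tumor 5. For anti-PD-1 against untreated, the models' differences were not called to differ in any of the 9 genes, with 0% of all genes called, 0 of 9 at an unadjusted p under 0.05 (7.27% of all genes), and none called by limma-voom.

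Of the interferon-γ route that induces Ciita, the genes Ifng, Ifngr2, Jak2 and Irf1 were lower in untreated 66cl4, whereas Ifngr1 and Jak1 were not called. Of 19 regulators of class II genes, 7 were lower and 2 higher in untreated 66cl4, and 8 and 2 under anti-PD-1, 8 and 6 under chitin, and 6 and 4 under chitin + anti-PD-1. Beside the 28.7%, 31.1%, 29.9% and 29.1% of all genes that were lower, these counts are not read as a result about the list, and the same background holds for the lists that follow. Jak2, a kinase of the interferon-γ receptor, differed by -2.36 ± 0.17, adjusted p = 8.37e-14 on the deposited log2 scale in untreated tumors, and Irf1, a factor induced by interferon-γ, by -1.5 ± 0.22, adjusted p = 6.16e-07. Both genes were called lower in 66cl4 in each of the 4 treatments. The cytokine itself, Ifng, was lower in untreated 66cl4 (difference of -0.72 ± 0.15, adjusted p = 0.000125), with 0 reads in 6 of the 39 tumors, as was its receptor chain Ifngr2 (difference of -0.48 ± 0.17, adjusted p = 0.0174). The genes of the RFX complex, which binds class II promoters at the X1 box, were not called in untreated tumors, with Rfx5 at 8.48 ± 0.26 in 4T1 and 8.52 ± 0.10 in 66cl4 (0.04, adjusted p = 0.745), Rfxap at 0.15, adjusted p = 0.07, and Rfxank at 0.06, adjusted p = 0.506. The NF-Y subunits, which bind the Y box, moved little in size, with Nfya (0.37, adjusted p = 0.0006) and Nfyc (0.21, adjusted p = 0.0101) higher and Nfyb (-0.27, adjusted p = 0.00865) lower in 66cl4. Irf8, a factor of dendritic cells and macrophages, was also called lower (-0.78, adjusted p = 0.000368).

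Other class II loci were lower in 66cl4 as well. H2-Ea, the α chain that pairs with H2-Eb1, differed by -2.87 ± 0.48, adjusted p = 5.65e-06, and H2-DMb2, the neighbor of H2-DMb1, by -2.34 ± 0.28, adjusted p = 1.62e-08. Of the 5 other class II loci, 3 were lower in untreated 66cl4, 5 under anti-PD-1, 4 under chitin and 2 with both agents, and none higher; H2-Oa, which encodes a chain of the DM inhibitor H2-O, was the third in untreated tumors (-0.58, adjusted p = 0.00375). Genes of protein breakdown in the endosome did not go the same way. Of 6 processing genes, 3 were higher in untreated 66cl4, namely the cathepsins Ctsb (0.88, adjusted p = 1.39e-06), Ctsd (0.82, adjusted p = 5.85e-05) and Ctsl (0.80, adjusted p = 0.00504), and 1 was lower, Ctss, the cathepsin that trims the invariant chain (-0.68, adjusted p = 0.0321). In tumors given chitin, alone or with anti-PD-1, 5 of the 6 were higher in 66cl4 and none lower. Of the 2 genes of class II turnover, Marchf8, a ubiquitin ligase, was higher in untreated 66cl4 (0.18, adjusted p = 0.00811). Among 7 genes of costimulation, 4 were lower in untreated 66cl4, the PD-1 ligands Cd274 (-1.58, adjusted p = 3.24e-05) and Pdcd1lg2 (-1.02, adjusted p = 2.99e-05), Cd40 (-0.63, adjusted p = 0.0054) and Icosl (-0.50, adjusted p = 0.00158), and the receptors Cd28, Ctla4 and Icos were not called.

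Cell-type markers differed between the models in both directions. Of 9 macrophage markers, 5 were higher in untreated 66cl4 and none lower, including Mrc1 (2.68, adjusted p = 1.08e-06), Adgre1 (0.99, adjusted p = 0.00525) and Cd68 (0.96, adjusted p = 3.95e-06), 3 under anti-PD-1, 8 under chitin and 9 with both agents. Their summed normalized counts were 5509 to 34374 in 4T1 and 26278 to 49540 in 66cl4 tumors, so that the model with lower class II RNA had more macrophage marker RNA. Of 8 dendritic cell markers, 3 were lower in untreated 66cl4, 8 under anti-PD-1, 2 under chitin and 2 with both agents, led in untreated tumors by Itgax (-2.30, adjusted p = 6.58e-12). Their median difference was -0.27 in untreated tumors, -0.74 under anti-PD-1, 0.004 under chitin and 0.005 with both agents. In tumors given chitin the list as a whole was thus not lower. Over all treatments, the sums were 343 to 1737 in 4T1 and 160.2 to 399.8 in 66cl4. Of 5 T-cell markers, 4, 5, 4 and 2 were lower, among them Cd8a (-1.57, adjusted p = 2e-06), with sums of 148 to 1568 in 4T1 and 35.2 to 237 in 66cl4. B-cell markers were sparse, with sums of 5.32 to 448 and 20.1 to 66.2 for Cd79a, Cd79b and Pax5, the only markers of the list analysed here; none was called apart from 3 lower under anti-PD-1. Neutrophil markers (4 of 6 analysed) were lower in 66cl4 in 3 or more of 4 in each treatment. The pan-leukocyte gene Ptprc was not called in untreated tumors (-0.20, adjusted p = 0.502). Of the markers named, Cd79b and Pax5 had 0 reads in 1 tumor each. Markers of remaining gland, muscle and fat were called lower in 66cl4 under anti-PD-1 in 2 of 2, 4 of 4 and 3 of 4. The class II genes were called lower in that comparison and in each other treatment alike. Over all treatments, summed gland, muscle and fat markers were 4.01 to 1873, 79.8 to 7260 and 44.2 to 6699 in 4T1. In 66cl4 the sums were 0.711 to 232, 3.75 to 3044 and 158 to 1632. The part of these cell types in the class II difference was not tested.

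Tumors of the same group differed in class II RNA to an unequal degree, and the genes moved together. For H2-Ab1 the highest normalized count was 1.56 times the lowest under anti-PD-1 and 1.75 times under chitin + anti-PD-1 in 4T1, 2.94 and 3.95 times in untreated and chitin-treated 4T1, and 3.42 to 5.77 times within the 66cl4 groups. Over the 20 66cl4 tumors of all groups the ratio of the highest to the lowest count was 11.6 for H2-Aa, 10.1 for H2-Ab1, 12.6 for H2-Eb1, 11.4 for Cd74 and 18.7 for Ciita, against 2.15 for Cd80 and 2.09 for Cd86. Over the 19 4T1 tumors these ratios were 3.52, 5.02, 4.49, 3.70, 5.25, 3.56 and 3.78. After subtraction of each group's mean, Ciita followed H2-Ab1 closely in 66cl4 (r = 0.95, rho = 0.96, n = 20, permutation p = 1e-05, the smallest that 100000 resamples can give, adjusted p = 7.33e-05 over 44 relations). Without the 2 tumors farthest from the median, r was 0.94. With H2-Aa, H2-Eb1, Cd74, H2-DMa and H2-DMb1, r was 0.96, 0.95, 0.94, 0.94 and 0.95. In 4T1 tumors the relation was looser, at r = 0.79, rho = 0.73 for H2-Ab1 (n = 19, permutation p = 0.00191, adjusted p = 0.00467), with r = 0.67 without the 2 farthest tumors. For Cd74 in 4T1 it was r = 0.68, rho = 0.59 (permutation p = 0.0102, adjusted p = 0.0179) and fell to r = 0.50 (adjusted p = 0.107), so that it rests on those tumors.

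The costimulatory ligands parted in this respect. Cd86 followed Ciita in 66cl4 (r = 0.80, rho = 0.80, permutation p = 0.00016, adjusted p = 0.00088; r = 0.71 without the 2 farthest tumors) and in 4T1 (r = 0.75, rho = 0.76, permutation p = 0.00342, adjusted p = 0.00752; r = 0.62 without them). Cd80 did not pass in 66cl4 (r = -0.07, rho = -0.11, permutation p = 0.773, adjusted p = 0.85). In 4T1 its relation was negative and did not pass by r (r = -0.53, permutation p = 0.033, adjusted p = 0.0519), with r = -0.43 without the 2 farthest tumors. By rho it passed (rho = -0.59, permutation p = 0.0179, adjusted p = 0.0315).

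**Figure D4:**
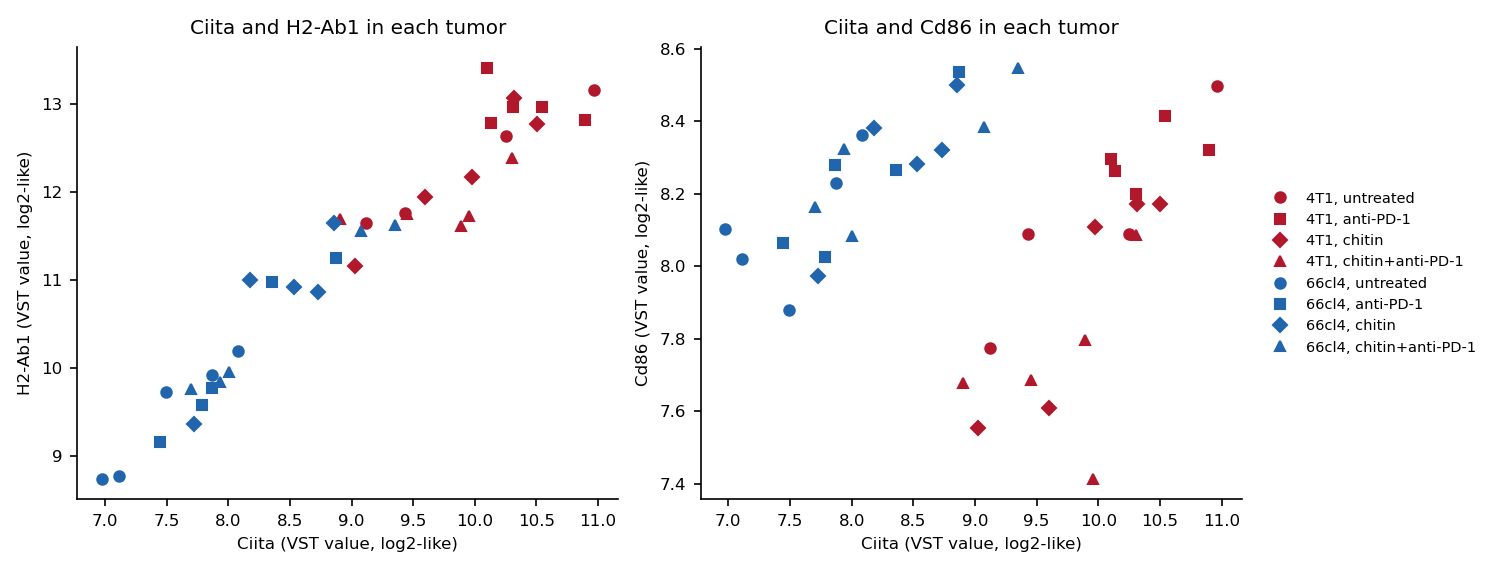
Ciita (x axes) against H2-Ab1 (left, y axis) and Cd86 (right, y axis) in every tumor, as deposited log2-like values, colored by model and marked by treatment. H2-Ab1 and Cd86 rise with Ciita within each model, and the 66cl4 tumors lie at lower Ciita than most 4T1 tumors with Cd86 in the same range or above.

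Of the marker lists, T-cell markers followed H2-Ab1 most closely in both models. Within groups, their mean and H2-Ab1 gave r = 0.91, rho = 0.94, permutation p = 1e-05, adjusted p = 7.33e-05 in 66cl4 (n = 20) and r = 0.92 without the 2 farthest tumors. In 4T1 (n = 19) they gave r = 0.81, rho = 0.83, permutation p = 0.00019, adjusted p = 0.000924, and r = 0.76 without the 2 farthest. Macrophage markers passed with H2-Ab1 in 66cl4 (r = 0.70, rho = 0.73, permutation p = 0.00188, adjusted p = 0.00467; r = 0.67 without the 2 farthest), but not in 4T1 (r = 0.46, rho = 0.45, permutation p = 0.0426, adjusted p = 0.0647). B-cell markers passed in 66cl4 (r = 0.73, rho = 0.75, permutation p = 0.00147, adjusted p = 0.00404; r = 0.64 without the 2 farthest), but not in 4T1 (r = 0.35, rho = 0.46, permutation p = 0.0786, adjusted p = 0.112). The pan-leukocyte gene Ptprc passed with H2-Ab1 in 4T1 (r = 0.61, rho = 0.66, permutation p = 0.0176, adjusted p = 0.0299), which rests on the 2 farthest tumors (adjusted p = 0.166 without them). In 66cl4 Ptprc did not pass by r (r = 0.46, permutation p = 0.0555, adjusted p = 0.0813) but passed by rho (rho = 0.52, permutation p = 0.0293, adjusted p = 0.0481). Dendritic cell markers passed in 4T1 (r = 0.58, rho = 0.68, permutation p = 0.00454, adjusted p = 0.00888), with r = 0.59 without the 2 farthest tumors. In 66cl4 they passed by r (r = 0.56, permutation p = 0.0229, adjusted p = 0.0373) but not by rho (rho = 0.52, permutation p = 0.0384, adjusted p = 0.0603). The 66cl4 relation by r rests on the 2 farthest tumors (adjusted p = 0.13 without them). Cd86 passed with macrophage markers in 4T1 by r (r = 0.63, permutation p = 0.00691, adjusted p = 0.0127), with r = 0.70 without the 2 farthest tumors. It did not pass there by rho (rho = 0.43, permutation p = 0.108, adjusted p = 0.145). In 66cl4 Cd86 passed with them (r = 0.65, rho = 0.70, permutation p = 0.00464, adjusted p = 0.00888), with r = 0.68 without the 2 farthest. Ptprc gave the highest r with Cd86 among the lists in 4T1 (r = 0.82, rho = 0.75, permutation p = 0.00021, adjusted p = 0.000924; r = 0.74 without the 2 farthest) and did not pass in 66cl4 (r = 0.40, adjusted p = 0.156). With T-cell markers, Cd86 gave r = 0.80, rho = 0.66, permutation p = 0.00078, adjusted p = 0.00248 in 4T1 and r = 0.65, rho = 0.68, permutation p = 0.00447, adjusted p = 0.00888 in 66cl4 (r = 0.73 and 0.67 without the 2 farthest). Neutrophil and epithelial markers passed with H2-Ab1 in neither model.

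**Figure D5:**
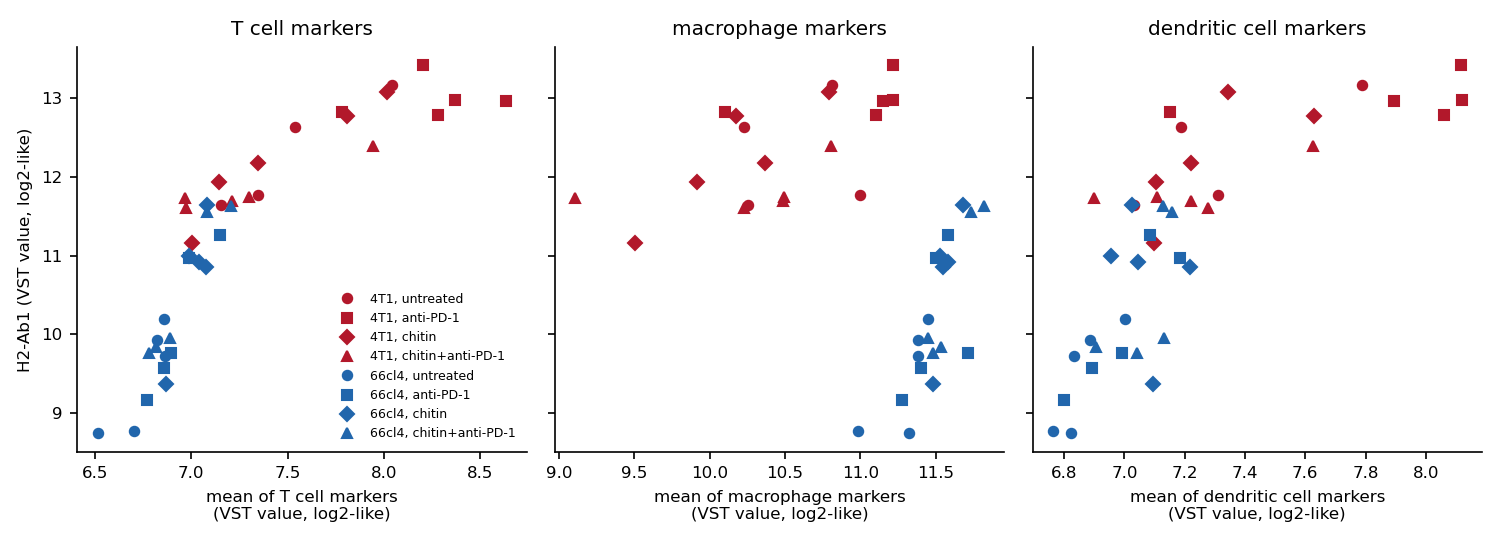
H2-Ab1 (y axis) against the mean of the T-cell, macrophage and dendritic cell markers (x axes, left to right) in every tumor, as deposited log2-like values, colored by model and marked by treatment. H2-Ab1 rises with T-cell markers within each model, and 66cl4 tumors lie at lower T-cell and higher macrophage marker means than most 4T1 tumors.

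The genes most like the class II genes over the 39 tumors were chosen by Pearson's r with the mean of H2-Aa, H2-Ab1, H2-Eb1 and Cd74 after subtraction of group means, as a description. Among genes outside the 9, H2-Ea came first (0.99), followed by Fcgr4, an activating Fc receptor (0.80), Zmynd15 (0.78), Slamf8, a receptor of myeloid cells (0.78), and Rab43 (0.77). H2-DMa (0.92), H2-DMb1 (0.88) and Ciita (0.86) ranked directly behind the 4 genes and H2-Ea among 14259 symbols, Cd86 ranked 15 (0.75) and Cd80 ranked 11765 (-0.22). Between the models in untreated tumors, Zmynd15 (-1.80, adjusted p = 5.64e-10), Fcgr4 (-1.17, adjusted p = 0.00123) and Slamf8 (-0.84, adjusted p = 0.000626) were lower in 66cl4, and Rab43 was not called (-0.42, adjusted p = 0.0609).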

How the data were processed

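For the 39 primary tumors analysed here, RNA was sequenced from TruSeq libraries. Reads were aligned to mm10 with HISAT2 and counted per gene by the authors with summarizeOverlaps (intersection non-empty, with regard to strand and including unpaired reads). The authors retained genes above 10 counts in 10% of cases or more, and the log2-like values they deposited are from the variance stabilizing transformation of DESeq2. The counting annotation and versions are not given in the sources used here. The lowest deposited value stands for 0 reads, from which reads and size factors were recovered (100% whole within 0.001 reads); SDs between tumors served as the measure of precision, and normalized counts are reads over these size factors.

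All group comparisons used limma 3.58.1 (R 4.3.3; eBayes with trend, two-sided), with Benjamini-Hochberg adjustment over 14318 genes and a threshold of 0.05. Comparisons of treatments were fitted to the 4 groups of 1 model and comparisons of models to all 8. Confidence intervals of differences are at 95%. Correlations used Pearson's r and Spearman's rho on values less the group mean, with permutation within groups, adjusted over 44 relations. The p-values printed are those of r, and those of rho are added where the calls differ. The fit was tested on simulated data. Alternatives were array weights, another centring or scaling, limma-voom, equal depth, a filter on low genes, the compared groups alone, a replicate block and leaving out each tumor. Genes named are the 9 members, fixed pathway and marker lists and the 5 genes most like them. The members and lists were chosen with earlier results of these data known.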

Additional observations from a re-analysis of the deposited data

Results flagged for a closer look

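In 1 of the 72 combinations of gene and group, a tumor stood far from the others of its group by Dixon's criterion. H2-Ab1 was 12.39 on the deposited log2 scale (5228 normalized counts) in tumor 5 of the 4T1 chitin + anti-PD-1 group, whereas the other 4 tumors were at 11.61 to 11.75. The gap to the nearest tumor was 0.819 of the group's range, above the critical 0.71 for 5 tumors. Chance marks about 1 in 20 groups.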

How the results depend on the processing

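The 7 class II genes kept their direction between the models in all 1344 results under the alternatives run, and 21 of these no longer passed the threshold. Most of the 1344 results leave out 1 tumor. Where that tumor belongs to neither compared group, the difference cannot change, so its direction was fixed in advance. The same holds for the filter on low genes and for the compared groups alone. The total is therefore no measure of how firm the direction is. For chitin + anti-PD-1, 66cl4 against 4T1, the 8 genes called became 5 with the replicate block and 5 to 9 when 1 tumor was left out; with the block, H2-Aa (adjusted p = 0.0724), H2-Ab1 (0.06) and Cd74 (0.0804) were lost. For the difference between models in the effect of chitin-containing treatment, array weights called 2 of the 9 genes, the replicate block 1, and leaving out 1 tumor 0 to 2, against 0 in the report; over all genes the counts were 14, 1004 with array weights and 176 with the block. Array weights also called 960 of all genes for 4T1 anti-PD-1, 297 and 185 for chitin-containing 4T1 and 66cl4 tumors and 331 for the difference between models under anti-PD-1, and fitting both models at once called 60 for 4T1 anti-PD-1, 3 for 4T1 chitin + anti-PD-1, 58 for chitin-containing 4T1 and 1 for chitin-containing 66cl4, where the report has 0. No source ties tumors of the same number across groups, and deviations of same-numbered tumors correlated at -0.39 to 0.45 in 4T1 and -0.30 to 0.54 in 66cl4, with medians of -0.017 and 0.026. The call of Cd80 in untreated tumors was lost with the compared groups alone (adjusted p = 0.0752) and with the replicate block (0.125).

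Differences near 0 changed sign. H2-Eb1 in 4T1 under chitin was -0.000837 with array weights and -0.16 to 0.37 without 1 tumor, Cd80 in 66cl4 under anti-PD-1 was -0.0035 with limma-voom and -0.0304 to 0.0876 without 1 tumor, and Cd86 between models under anti-PD-1 was 0.0512 with the replicate block. Without 1 tumor, the chitin + anti-PD-1 difference in 4T1 was -0.51 to 0.10 for Ciita, -0.0449 to 0.11 for Cd80 and -0.40 to 0.0112 for H2-DMb1, that of Cd80 in 66cl4 was -0.10 to 0.0223, that of Cd80 in chitin-containing 66cl4 was -0.0023 to 0.0567, and that of Cd86 between untreated models was -0.11 to 0.13. The cause was not tested.

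On recovered reads, limma-voom gave wider gaps for low genes, with untreated 66cl4 minus 4T1 at -4.18 for H2-DMb1, -3.70 for Ciita and 0.768 for Cd80. Reads carry no molecular identifiers.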

Other observations

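Within tumors, the chains of H2-DM were in another ratio in each model. H2-DMb1 minus H2-DMa was -1.41 ± 0.19 on the log2 scale of normalized counts (SD, n = 19; -1.70 to -0.97) in 4T1 and -3.12 ± 0.53 (n = 20; -3.89 to -2.18) in 66cl4 tumors, and no 66cl4 tumor reached the 4T1 range. Reads shared with H2-DMb2 may enter this ratio and were not tested. For the I-A partners, H2-Aa minus H2-Ab1 was -0.46 ± 0.15 (-0.66 to -0.13) in 4T1 and -0.20 ± 0.10 (-0.43 to -0.00073) in 66cl4, with overlap. Between the β chains of I-A and I-E, H2-Ab1 minus H2-Eb1 was -0.53 ± 0.12 in 4T1 and -0.50 ± 0.12 in 66cl4, and Cd74 minus H2-Ab1 was 2.23 ± 0.21 and 2.48 ± 0.11. Cd86 minus H2-Ab1 was -5.18 ± 0.35 in 4T1 and -2.52 ± 0.83 in 66cl4, so that 66cl4 tumors had more Cd86 RNA per class II RNA. These ratios are descriptions with no test.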
